A study of Homo sapiens with 12 samples.

Results

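GDF15, FGF21, INHBE, ADM2 and STC2 encode small proteins that cells release into the blood or the space around them when they are under metabolic or protein-folding stress. These 5 genes, of 19923 counted, were selected on measured values: they were chosen as secreted factors of the integrated stress response with their own response to the drug in these libraries already known. Their response to the drug is therefore described here and not tested. Polyadenylated RNA was sequenced from 2 established lines of human neuroblastoma, SK-N-BE2 and NGP, in which the oncogene MYCN is amplified. STM2457, a small-molecule inhibitor of the RNA methyltransferase METTL3, was given for 6 days at 12 µM to SK-N-BE2 and at 1 µM to NGP, and controls of each line received DMSO for the same time. Each of the 4 groups held 3 replicates, 12 libraries in all. No group received a stressor by its labels, so induction of these genes by stress was not measured, and a transcript level says nothing direct about secreted protein.

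In the integrated stress response, kinases that sense amino acid shortage, unfolded protein, viral RNA or lack of heme phosphorylate the translation factor eIF2. Most translation then falls while ATF4 is made, a transcription factor that, often with a C/EBP partner or with DDIT3 (CHOP), switches on genes for amino acid supply, redox balance and feedback control. Hormone-like products of the same programme tell other organs about the stress: GDF15 acts on the hindbrain to lower food intake, and FGF21 on liver, fat and brain to adjust fuel use. Both are best known from liver, muscle and other stressed tissues, and GDF15 also from tumours.

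The deposited counts summed to between 47242379 and 58159937 reads per library. Levels are given as CPM, read counts scaled to library size with TMM factors over all 12 libraries, and as CPM per kilobase of exon where genes are compared with each other. The file headers carry a different folder name for each of the 2 lines, and they do not say whether this marks a sequencing run. The lines also received different doses. Line, dose and any batch that follows the line therefore cannot be told apart in any comparison of the lines. 1 library, NGP DMSO replicate 1, differed from the rest of its group, with a root mean square log2 difference of 0.56 and 0.50 from the other DMSO replicates of NGP, which differed from each other by 0.34. Of 8 neuroblastoma markers, 7 reached 1 CPM in each group, with a summed level between 5302 and 6747 CPM in all libraries. Of 6 hepatocyte markers none did, and their sum stayed at or below 0.580 CPM. The summed level of 6 fibroblast markers moved with the treatment, from 128 to 150 CPM with DMSO to 247 to 271 CPM with STM2457 in SK-N-BE2, and from 64.2 to 78.9 CPM to 424 to 536 CPM in NGP. COL1A2, one of these markers, stayed between 0 and 0.117 CPM in all libraries. The other 5 were called higher in both lines, and their part in the results below was not tested. A bulk level cannot separate fewer cells expressing a gene from less RNA per cell.

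All 5 hormone genes were lower with STM2457 in both lines, and every STM2457 library lay below every DMSO library of its line for each of them. Among all genes tested this ordering was met by 29.1% of 14013 in SK-N-BE2 and by 27.8% of 13610 in NGP, and since the genes were chosen with this contrast known nothing is read from their own share. The summed level of the 5 genes was 773 ± 66.2 CPM in SK-N-BE2 controls and 27.5 ± 0.436 CPM in treated SK-N-BE2 (SD, n = 3). In NGP it was 862 ± 31.4 CPM with DMSO and 94.6 ± 9.23 CPM with STM2457 (SD, n = 3). All 5 passed the filter on low counts in both lines, FGF21 in both lines and INHBE in SK-N-BE2 through their DMSO libraries alone. The rule had no threshold on a value, so no gene lay just inside or outside one.

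**Figure D1:**
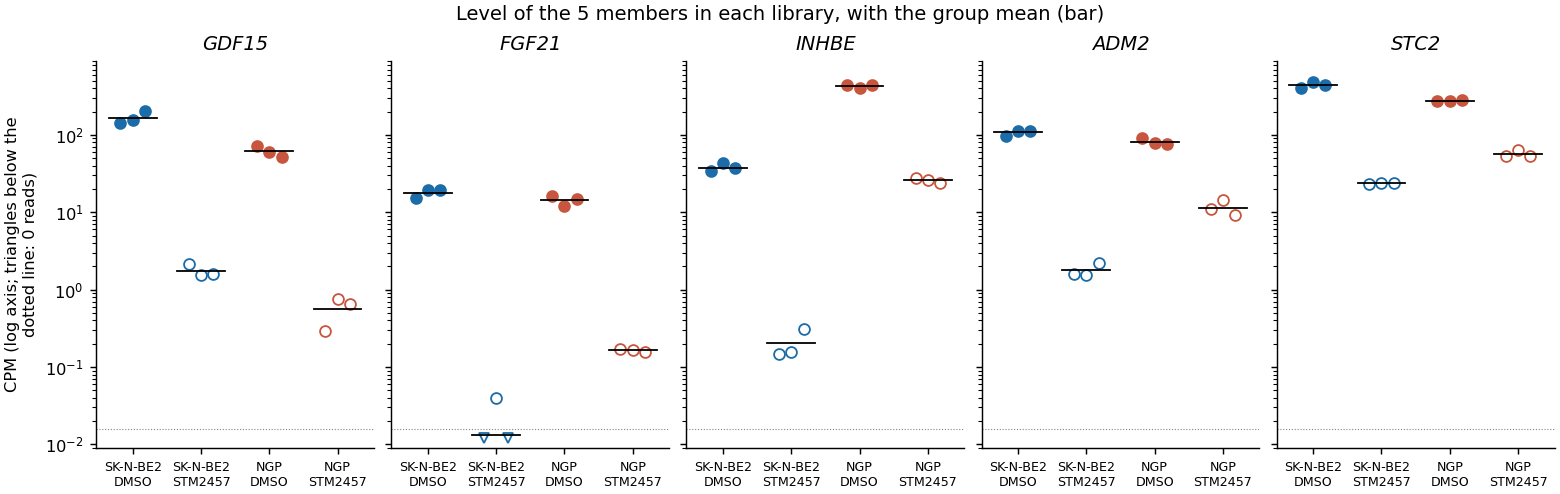
CPM of each of the 5 genes in each of the 12 libraries on a log axis, filled points for DMSO, open points for STM2457 and bars for group means, with libraries of 0 reads drawn as triangles under the dotted line. Every open point lies below every filled point of its line, and FGF21 in SK-N-BE2 is the 1 gene with libraries at 0 reads.

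GDF15 is a distant member of the TGF-β family and the ligand of the hindbrain receptor GFRAL. The gene lies on chromosome 19 from 18374731 to 18389176 on the plus strand (GRCh38). In SK-N-BE2 its level was 141, 154 and 203 CPM in the DMSO libraries and 2.13, 1.57 and 1.59 CPM in the STM2457 libraries. In NGP it was 71.9, 60.3 and 51.9 CPM with DMSO and 0.296, 0.757 and 0.659 CPM with STM2457. The treated libraries were thus all low, and the lowest of the 12 was NGP STM2457 replicate 1, with 14 reads. Of the DMSO mean, 1.06% was left in SK-N-BE2 and 0.930% in NGP. On the log2 scale these were fold changes of -6.59 (SE 0.17) and -6.73 (SE 0.29), the 11th and 6th lowest of all genes tested in the respective line. GDF15 was the one gene of the 5 whose remaining share was about the same in both lines, with a difference of log2 fold changes, SK-N-BE2 minus NGP, of 0.15 (SE 0.34).

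FGF21 is a hormone-like fibroblast growth factor that signals through FGF receptors together with the co-receptor β-Klotho. It lies on chromosome 19 from 48755524 to 48758333 on the plus strand. In SK-N-BE2 its level was 15.1, 19.4 and 19.3 CPM with DMSO. Of the 3 STM2457 libraries there, 2 held 0 reads and replicate 2 held 2 reads, or 0.0392 CPM. The limit that a count of 0 allows if reads are independent, 3 reads, corresponds to between 0.0527 and 0.0635 CPM over the 12 libraries. A fragment can add up to 2 reads, so the true limit is higher. Transcript of FGF21 was thus not distinguishable from 0 at this depth. In NGP its level was 16.1, 11.9 and 14.7 CPM with DMSO, and 8 reads were counted in each STM2457 library, 0.169, 0.168 and 0.155 CPM.

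Over the SK-N-BE2 group FGF21 went from 2825 reads in the DMSO libraries to 2 in the treated ones, a ratio of 1402 after scaling with an exact 95% interval from 388 to 11582 that covers counting error only. The NGP ratio was 86.9, from 2168 reads to 24, with an interval from 58.2 to 136. The fitted log2 fold changes were -10.25 (SE 0.34) in SK-N-BE2 and -6.42 (SE 0.23) in NGP, ranks 2 and 8 from the lowest. With so few treated reads the SK-N-BE2 value moved with the prior count and with 1 library by far more than its SE. It was -8.49 with a prior count of 2 and -12.91 without STM2457 replicate 2.

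FGF21 starts 133 bases from FUT1, which runs in the opposite direction on the minus strand and encodes a fucosyltransferase that makes the H antigen. FUT1 was lower with STM2457 in both lines, as FGF21 was, but its fall was similar in the lines while that of FGF21 was larger in SK-N-BE2. In SK-N-BE2 it fell from 33.2 ± 6.76 to 0.428 ± 0.0991 CPM (SD, n = 3), or by 6.31 as log2 (SE 0.21, adjusted p 9.97e-11, edgeR). In NGP it fell from 70.2 ± 6.11 to 0.924 ± 0.247 CPM (SD, n = 3), or by 6.24 as log2 (SE 0.20, adjusted p 1.48e-06, edgeR). The difference between the FUT1 responses was not called (-0.05, SE 0.29, adjusted p 0.923, edgeR). The sequence shared by the starts of this pair is shown because both genes moved, beside that in front of ADM2, another of the 5 genes, for comparison. Both are the plus strand of GRCh38 from RefSeq (GRCh38.p14), chr19:48755391-48755523 for FGF21 and chr22:50481293-50481542 for ADM2, and capitals mark a motif match.

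FGF21: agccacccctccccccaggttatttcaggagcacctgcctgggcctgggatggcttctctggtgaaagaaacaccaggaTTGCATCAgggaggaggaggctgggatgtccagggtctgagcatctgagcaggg
ADM2: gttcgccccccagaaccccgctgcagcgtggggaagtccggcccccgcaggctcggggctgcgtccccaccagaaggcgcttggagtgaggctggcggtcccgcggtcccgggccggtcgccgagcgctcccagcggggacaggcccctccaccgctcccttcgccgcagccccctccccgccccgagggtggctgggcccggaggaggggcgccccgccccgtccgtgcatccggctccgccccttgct

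The FGF21 stretch fills the whole gap between FUT1 and FGF21 and is 60.2% G and C, against 78.8% in the 250 bases in front of ADM2. Promoter entries, from 250 bases before to 50 bases after the start, existed for 4 of the 5 genes. They were searched for 4 motifs, chosen after the sequences had been seen. The C/EBP-ATF composite element TGATGNAA, on either strand, was present in 3.62% of 35116 promoter entries of this length. Its match in FGF21, TTGCATCA on the sense strand, begins 54 bases before the start. The cyclic AMP response element TGACGTCA (1.85% of entries, either strand) and the ER stress response element (0.0769%, either strand) matched in none of the 4. The TATA box TATAAA, on the sense strand, matched in GDF15 at 29 bases before the RefSeq start, which lies inside the span given above for the deposited gene model and not at its end, and is found in 7.33% of entries. ADM2 and STC2 held no match. A match describes letters and not a bound site.

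INHBE encodes the βE subunit of activin, a TGF-β family ligand best known as a secreted product of the liver. It lies on chromosome 12 from 57452323 to 57459280 on the plus strand. In SK-N-BE2 its level was 33.9, 42.9 and 36.8 CPM with DMSO and 0.148, 0.157 and 0.307 CPM with STM2457, the last from 8, 8 and 16 reads. In NGP it was 445, 403 and 438 CPM with DMSO and 27.7, 26.5 and 23.9 CPM with STM2457. The treated NGP libraries thus came close to the untreated SK-N-BE2 libraries without overlapping them. The share left was 0.538% in SK-N-BE2 and 6.07% in NGP, with log2 fold changes of -7.56 (SE 0.20) and -4.04 (SE 0.11). Exons of a gene on the other strand cover 16.4% of the INHBE exon length, and since counting used no strand information its values are uncertain to that extent.

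ADM2, also called intermedin, is a peptide of the calcitonin family related to adrenomedullin that widens blood vessels. It lies on chromosome 22 from 50481543 to 50486440 on the plus strand. In SK-N-BE2 its level was 98.2, 112 and 113 CPM with DMSO and 1.61, 1.57 and 2.22 CPM with STM2457. In NGP it was 89.9, 79.4 and 75.6 CPM with DMSO and 10.9, 14.2 and 9.25 CPM with STM2457. The DMSO levels of the lines were near each other, while the treated NGP libraries all lay above the treated SK-N-BE2 libraries. The share left was 1.67% in SK-N-BE2 and 14.0% in NGP, with log2 fold changes of -5.94 (SE 0.14) and -2.83 (SE 0.17).

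STC2 is a secreted glycoprotein that binds and blocks the protease PAPP-A, which frees insulin-like growth factors from their binding proteins. It lies on chromosome 5 from 173314713 to 173329503 on the minus strand. In SK-N-BE2 its level was 408, 476 and 444 CPM with DMSO and 23.2, 24.2 and 23.9 CPM with STM2457. In NGP it was 271, 276 and 281 CPM with DMSO and 52.6, 63.3 and 53.3 CPM with STM2457. Replicates of STC2 were close in all groups, and with STM2457 it kept 1232 to 3013 reads per library. It had the largest share left of the 5 genes in both lines, 5.36% in SK-N-BE2 and 20.4% in NGP, with log2 fold changes of -4.26 (SE 0.10) and -2.29 (SE 0.11).

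**Figure D2:**
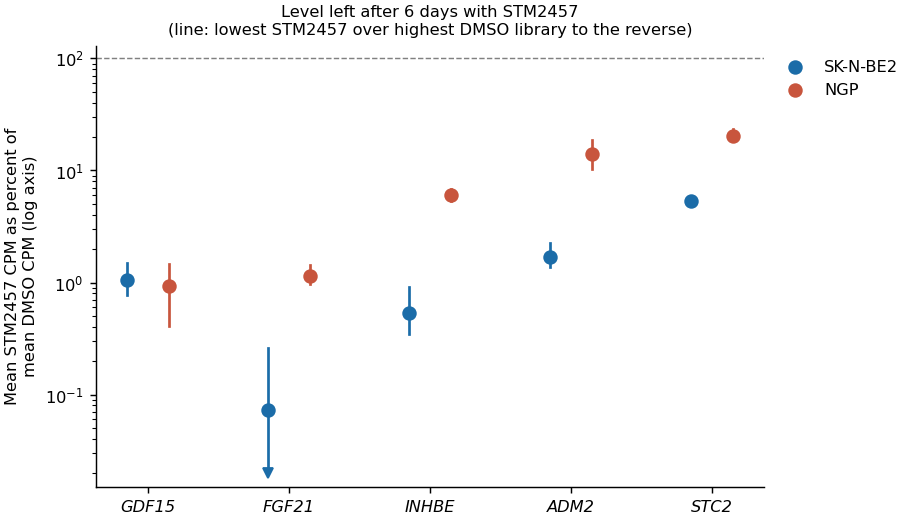
Mean CPM with STM2457 as a percent of mean CPM with DMSO for each gene in SK-N-BE2 and NGP, on a log axis; lines run from the lowest treated over the highest control library to the reverse, and an arrowhead marks a lowest value of 0. INHBE, ADM2 and STC2 have 6.07%, 14.0% and 20.4% left in NGP against 0.538%, 1.67% and 5.36% in SK-N-BE2, while the GDF15 ranges overlap.

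The lines thus differed in how far 4 of the 5 genes were reduced. As differences of log2 fold changes, SK-N-BE2 minus NGP, FGF21 gave -3.81 (SE 0.72), INHBE -3.51 (SE 0.24), ADM2 -3.09 (SE 0.23) and STC2 -1.96 (SE 0.13). These values are descriptions, since the choice of the genes used them. The FGF21 value rests on 2 treated reads in SK-N-BE2, and its SE can understate the uncertainty. The NGP values did not rest on the DMSO library that stood apart: without it the log2 fold changes were -6.60 for GDF15, -6.32 for FGF21, -4.01 for INHBE, -2.76 for ADM2 and -2.30 for STC2.

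Per exon length, the order of the 5 genes differed between lines and between treatments. With DMSO, GDF15 (79.6 ± 15.7 CPM per kilobase) and STC2 (72.3 ± 5.58) were the most abundant in SK-N-BE2, and their libraries overlapped (SD, n = 3). ADM2 followed at 25.1 ± 1.91, then FGF21 at 13.3 ± 1.81 and INHBE at 12.4 ± 1.51, and these last 2 also overlapped. In NGP with DMSO the order was INHBE at 141 ± 7.38 CPM per kilobase, STC2 at 45.1 ± 0.843, GDF15 at 29.4 ± 4.81, ADM2 at 19.0 ± 1.73 and FGF21 at 10.6 ± 1.59, with no overlap between neighbours.

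INHBE thus stood last in SK-N-BE2 and first in NGP without the drug. With STM2457, STC2 led in SK-N-BE2 at 3.88 ± 0.0757 CPM per kilobase, and all neighbours in the order were separate down to FGF21 at 0.00968 ± 0.0168. In NGP with STM2457, STC2 at 9.20 ± 0.983 and INHBE at 8.54 ± 0.629 overlapped at the top, followed by ADM2 at 2.67 ± 0.590, GDF15 at 0.273 ± 0.116 and FGF21 at 0.122 ± 0.00588. GDF15 stood behind only STC2 in treated SK-N-BE2 and ahead only of FGF21 in treated NGP.

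**Figure D3:**
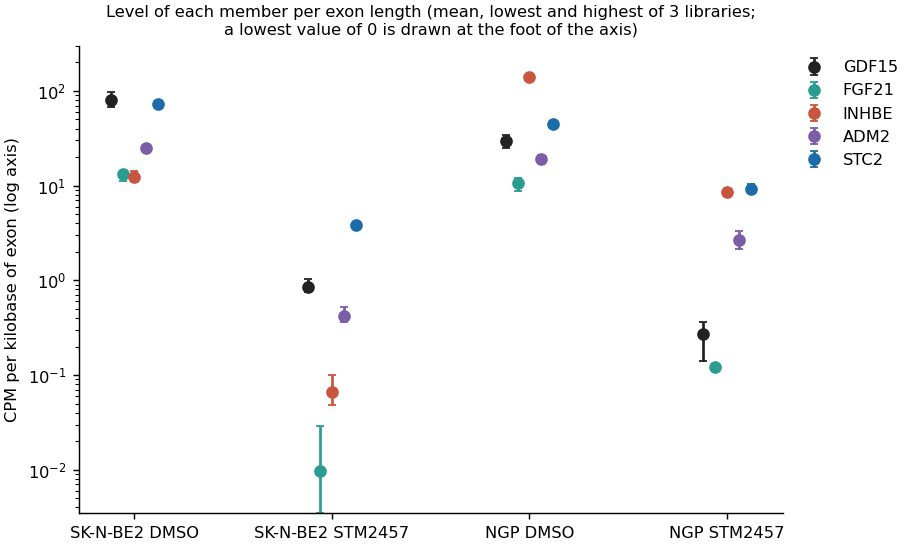
CPM per kilobase of exon for the 5 genes in the 4 groups on a log axis, points for the mean of 3 libraries and bars from the lowest to the highest. INHBE is the lowest point in SK-N-BE2 with DMSO (12.4) and the highest in NGP with DMSO (141), and FGF21 is the lowest in both groups with STM2457.

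Levels without the drug were compared between the lines in the DMSO libraries alone. They were known when the genes were chosen, so these differences too are described and not tested. Of all 14336 genes tested in that comparison, 64.8% were called different. INHBE differed most: 429 ± 22.5 CPM in NGP against 37.9 ± 4.60 in SK-N-BE2, 11.3-fold higher in NGP (log2 difference, SK-N-BE2 minus NGP, -3.49, SE 0.14). GDF15 was 2.71-fold higher in SK-N-BE2 (1.45, SE 0.17). STC2 was 1.60-fold higher in SK-N-BE2 (0.69, SE 0.12).

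The DMSO levels of ADM2 and FGF21 were closer. ADM2 was 1.32-fold higher in SK-N-BE2 (0.41, SE 0.12). FGF21 overlapped between the lines, with 1.26-fold more in SK-N-BE2 (0.34, SE 0.17). Without NGP DMSO replicate 1, the library that stood apart, the differences were 0.50 for ADM2 and 0.45 for FGF21.

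Receptors of these hormones were examined as a list of 16 receptor and co-receptor genes. In SK-N-BE2 12 of them could be tested, of which 3 were called higher in treated cells and 3 lower, beside 26.9% of all genes called higher and 27.8% called lower. In NGP 13 could be tested, and 4 were called higher and 4 lower, beside 19.4% and 22.2% of all genes. The median log2 fold change of the receptors was 0.01 in SK-N-BE2 and 0.00 in NGP, against -0.02 and -0.03 over all genes tested. The NGP receptor counts fell to as low as 3 higher and 2 lower when 1 library was left out, and were 4 and 4 without NGP DMSO replicate 1.

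GFRAL, the receptor of GDF15, was at or near 0 in all groups, with 2 and 4 reads in all in SK-N-BE2 with DMSO and STM2457 and 0 in each group of NGP. Its signalling partner RET, a receptor tyrosine kinase that neuroblastoma cells also use for GDNF-family ligands, was well expressed and moved in opposite directions. In SK-N-BE2 RET fell from 792 ± 24.5 to 401 ± 14.6 CPM (SD, n = 3; log2 fold change -1.02, SE 0.08, adjusted p 5.53e-07, edgeR). In NGP it rose from 92.1 ± 22.6 to 187 ± 3.52 CPM (1.03, SE 0.17, adjusted p 0.00164, edgeR). The difference of the RET responses was -2.03 (SE 0.19, adjusted p 3.78e-06, edgeR), beside 30.9% of 14731 genes called for such a difference.

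KLB, which encodes the β-Klotho co-receptor of FGF21, was low throughout. It rose in SK-N-BE2 from 0.291 ± 0.0139 to 0.789 ± 0.0977 CPM (1.40, SE 0.37, adjusted p 0.00559, edgeR) and was not called in NGP, where it measured 1.67 ± 0.482 and 1.93 ± 0.228 CPM (SD, n = 3). KL, the related Klotho co-receptor, had at most 10 reads in any group. FGFR1, the receptor that FGF21 mainly uses with β-Klotho, rose in both lines, from 67.7 ± 1.44 to 107 ± 4.84 CPM in SK-N-BE2 (0.63, SE 0.08, adjusted p 1.71e-05, edgeR) and from 101 ± 3.86 to 183 ± 2.37 CPM in NGP (0.86, SE 0.09, adjusted p 0.000146, edgeR).

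The other FGF receptors moved in NGP. There FGFR3 fell from 19.6 ± 2.67 to 1.11 ± 0.0499 CPM (-4.13, SE 0.17, adjusted p 2.89e-06, edgeR), FGFR2 rose from 11.2 ± 1.55 to 20.1 ± 0.304 CPM (0.85, adjusted p 0.00145, edgeR), and FGFR4 rose from 10.0 ± 2.03 to 14.2 ± 0.772 CPM (0.51, adjusted p 0.0371, edgeR). The FGFR4 call was lost without any one NGP library other than DMSO replicate 1 (adjusted p up to 0.0995). In SK-N-BE2 all 3 were low and not called, with log2 fold changes of 0.28 for FGFR2, -0.17 for FGFR3 and -0.05 for FGFR4. Of the 4 FGF receptors only FGFR3 had a called difference of responses between the lines (3.97, SE 0.41, adjusted p 9.19e-06, edgeR).

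Activin receptors were expressed at group means of 18.8 CPM or more, with the exception of ACVR1C (ALK7), whose mean was at most 1.01 CPM in any group and which was not called in NGP (-0.10) and not tested in SK-N-BE2. ACVR2A, a type II receptor, fell in both lines, by 0.42 (log2) in SK-N-BE2 (adjusted p 0.00211, edgeR) and by 0.50 in NGP (adjusted p 0.0136, edgeR). In NGP it was no longer called without DMSO replicate 3 or any one STM2457 replicate (adjusted p up to 0.0596). ACVR2B fell by 0.43 (log2) in SK-N-BE2 (adjusted p 0.00773, edgeR) and was not called in NGP (0.22). The type I receptor ACVR1B was not called in SK-N-BE2 (-0.11) and fell in NGP by 0.31 (adjusted p 0.0435, edgeR), a call lost without any one library other than DMSO replicate 1 (adjusted p up to 0.159).

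The receptor of ADM2 is CALCRL joined to one of 3 RAMP proteins. CALCRL was low in both lines and moved in opposite directions. In SK-N-BE2 it rose from 1.64 ± 0.424 to 2.67 ± 0.336 CPM (0.67, SE 0.24, adjusted p 0.0281, edgeR), a call lost without DMSO replicate 1 or 2 or STM2457 replicate 1 or 2 (adjusted p up to 0.116). In NGP it fell from 1.76 ± 0.557 to 0.297 ± 0.114 CPM (-2.55, SE 0.39, adjusted p 0.00130, edgeR), and the difference of responses was 3.23 (SE 0.46, adjusted p 0.000144, edgeR). RAMP1 was expressed at 68.4 to 110 CPM in the group means and RAMP2 at 5.77 to 10.1, and neither was called in either line. RAMP2 shares 34.0% of its exon length with genes on the other strand. RAMP3 had 2 reads in SK-N-BE2 with DMSO and 0 in the other groups.

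Relatives of the 5 genes did not move as one group. Of 10 relatives, 7 could be tested in each line, with 1 called higher and 4 lower in each, beside 26.9% of all genes higher and 27.8% lower in SK-N-BE2, while NGP gave 19.4% and 22.2%. Their median log2 fold change was -0.91 in SK-N-BE2 and -2.06 in NGP, against -0.02 and -0.03 over all genes tested. STC1, the paralog of STC2, rose where STC2 was lower: from a mean of 3.68 (range 3.18 to 4.18) to 9.60 (8.39 to 10.8) CPM in SK-N-BE2 (1.35, SE 0.15, adjusted p 9.16e-06, edgeR) and from 1.44 ± 0.155 to 3.98 ± 0.402 CPM in NGP (1.47, SE 0.20, adjusted p 0.000701, edgeR). FGF19, the gut hormone of the same FGF subfamily as FGF21, fell in both. In NGP it went from 39.1 ± 0.396 to 2.25 ± 0.295 CPM (-4.12, SE 0.14, adjusted p 1.48e-06, edgeR) and in SK-N-BE2 from 118 reads in all to 4 (-4.80, SE 0.74, adjusted p 0.000114, edgeR). FGF23, the remaining hormone of that subfamily, had 0 reads in all groups.

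Among calcitonin-family relatives of ADM2, CALCB, which encodes a calcitonin gene-related peptide, fell in both lines. It went from 29.9 ± 1.94 to 2.82 ± 0.474 CPM in NGP (-3.40, SE 0.16, adjusted p 4.07e-06, edgeR) and from 1.62 ± 0.496 to 0.276 ± 0.156 CPM in SK-N-BE2 (-2.59, SE 0.43, adjusted p 0.000200, edgeR). CALCA fell in SK-N-BE2 from 80 reads to 8 (-3.29, adjusted p 0.00103, edgeR). CALCA and CALCB are close copies and multi-mapping reads were not counted, so their levels are uncertain. Of the other activin subunits, INHBC fell in NGP from 7.88 ± 1.60 to 1.88 ± 0.344 CPM (-2.06, SE 0.22, adjusted p 0.000209, edgeR). INHBB there went from 62 reads to 2 (adjusted p 0.00248, edgeR), a ratio of 29.8 with an exact 95% interval from 7.91 to 252 for counting error.

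Of 10 genes whose products cut or bind these ligands, 7 could be tested in SK-N-BE2, with 4 called higher and 2 lower, and 8 in NGP, with 2 higher and 1 lower. All genes gave 26.9% higher and 27.8% lower in SK-N-BE2, while NGP gave 19.4% and 22.2%. The NGP count of higher genes ran from 0 to 4 when 1 library was left out. It was 4 without DMSO replicate 1, where calls over all genes also rose, from 5671 to 7897. The median log2 fold change was 0.29 in SK-N-BE2 and 0.37 in NGP. PAPPA, the protease that STC2 blocks, rose in SK-N-BE2 from 2.43 ± 0.663 to 5.43 ± 0.266 CPM (1.12, SE 0.20, adjusted p 0.000341, edgeR). In NGP, where it was at most 1.04 CPM in any library, it was also called (1.15, adjusted p 0.0219, edgeR), a call lost without DMSO replicate 3 or STM2457 replicate 1 or 2 (adjusted p up to 0.0837).

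PAPPA2, a related protease, went the other way. It fell from 16.6 ± 1.72 to 9.15 ± 0.826 CPM in SK-N-BE2 (-0.90, SE 0.12, adjusted p 3.16e-05, edgeR) and from 126 reads to 3 in NGP (adjusted p 0.000346, edgeR), a ratio of 40.4 with an exact 95% interval from 13.5 to 199 for counting error. The proprotein convertase PCSK7 rose in SK-N-BE2 from 32.0 ± 3.04 to 71.5 ± 1.52 CPM (1.12, adjusted p 3.92e-07, edgeR). MMP14, a membrane protease known to cleave GFRAL, rose there from a mean of 17.8 (range 16.8 to 18.9) to 36.7 (34.3 to 37.9) CPM (1.01, adjusted p 1.57e-06, edgeR). PCSK5, another convertase, was called higher in NGP (0.53, adjusted p 0.0370, edgeR), and lost that call without DMSO replicate 3 or any one STM2457 replicate (adjusted p up to 0.127). PAPPA and PCSK7 share 21.1% and 20.7% of their exon length with genes on the other strand.

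The transcription factors and other effectors of the integrated stress response fell with the hormones. Of 17 such genes, itself a list drawn up with these results known, 17 were called lower in SK-N-BE2, 16 were called lower in NGP, and 0 were called higher in either line, against 27.8% and 22.2% of all genes called lower. Since the choice of the list used these results, its counts and p-values are no independent support for its direction. Leaving out any 1 library changed neither count. The list's median log2 fold change was -3.17 in SK-N-BE2 and -2.63 in NGP. In SK-N-BE2 the largest falls were those of CHAC1, which degrades glutathione (402 ± 52.3 to 7.07 ± 0.551 CPM, adjusted p 4.32e-12, edgeR), the stress-induced chromatin protein NUPR1 (67.7 ± 9.14 to 1.34 ± 0.189), the transcription factor ATF5 (258 ± 34.4 to 8.13 ± 0.642) and the cystine transporter SLC7A11 (130 ± 10.1 to 4.70 ± 0.460).

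In NGP the largest were those of TRIB3, a pseudokinase that feeds back on ATF4 (459 ± 29.9 to 13.6 ± 3.02 CPM, adjusted p 1.48e-06, edgeR), NUPR1 (92 reads to 3, a ratio of 29.5 with an exact 95% interval from 9.78 to 146), ATF5 (327 ± 68.0 to 18.7 ± 4.97 CPM) and SESN2, a leucine sensor that restrains mTORC1 (148 ± 6.28 to 13.0 ± 1.14 CPM). ATF5 and NUPR1 share over 10% of their exon length with other genes. So do ASNS (49.3%, same strand), DDIT3 (31.6%, other strand) and CEBPB (12.6%, other strand) of the same list. The 1 gene not called in NGP was PHGDH, the first enzyme of serine synthesis (-0.14, adjusted p 0.506, edgeR), and it is named after its value was seen. So is ATF4, whose own transcript fell by 1.92 on the log2 scale in SK-N-BE2 and by 0.78 in NGP (adjusted p 8.79e-09 and 0.00506, edgeR).

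The difference of responses was called for 10 of the 17 stress response genes, 9 of them with the larger fall in SK-N-BE2, beside 30.9% of all genes. TRIB3 was the 1 with the larger fall in NGP (1.48, SE 0.21, adjusted p 0.000124, edgeR). CHAC1 differed most, by -2.76 (SE 0.18, adjusted p 2.19e-07, edgeR), with SLC7A11 next at -2.20 (SE 0.25, adjusted p 2.16e-05, edgeR). The values of INHBE, ADM2 and STC2 stood on the same side as those 9 genes and that of GDF15 near 0. Near 0 were also the values of SESN2 (0.08) and of ATF3, PPP1R15A, CEBPG and DDIT3, between -0.01 and 0.15, and these last 4 are named after their values were seen.

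**Figure D4:**
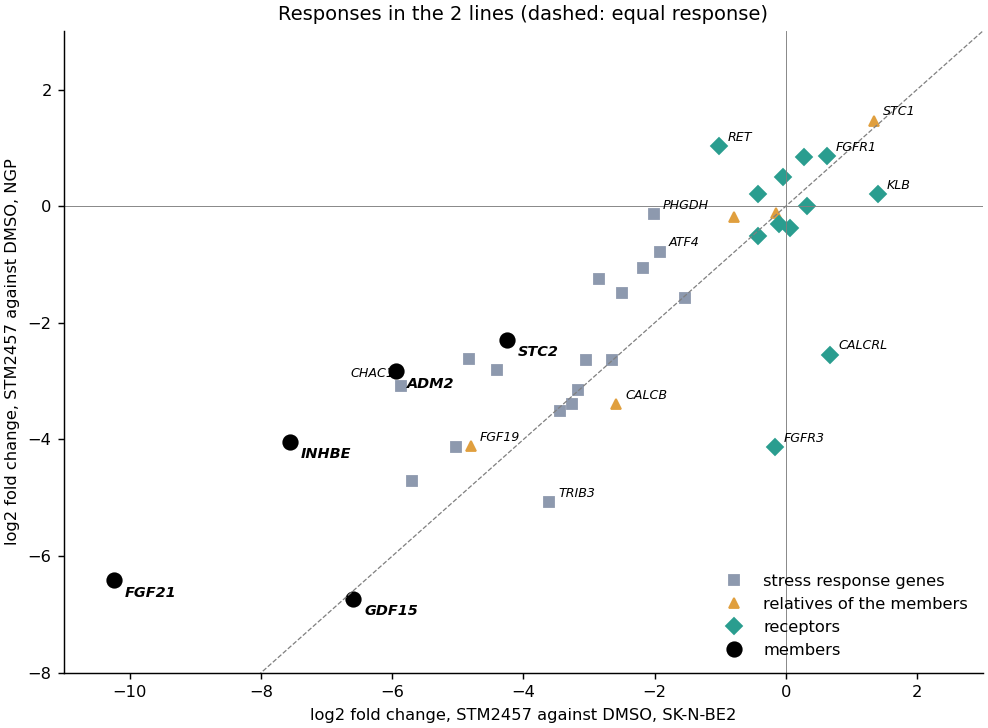
Log2 fold change with STM2457 in SK-N-BE2 (horizontal) against NGP (vertical) for the 5 hormone genes, the stress response genes, the relatives and the receptors tested in both lines, with the dashed line where both responses are equal. GDF15 lies close to the dashed line, and FGF21, INHBE, ADM2 and STC2 lie above it. Among the receptors FGFR3 and CALCRL lie lowest in NGP, at -4.13 and -2.55. The other receptors lie between -1.02 (RET) and 1.40 (KLB), both in SK-N-BE2, and RET is at 1.03 in NGP.

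The genes next to the 5 were examined by position, 3 on each side, 30 in all. In SK-N-BE2 26 could be tested, with 2 called higher and 16 lower, and in NGP 27, with 1 higher and 18 lower. Of all genes, 26.9% were called higher and 27.8% lower in SK-N-BE2, while NGP gave 19.4% and 22.2%. The median log2 fold change of the neighbours was -0.49 in SK-N-BE2 and -0.84 in NGP. Leaving out 1 library gave 13 to 16 lower in SK-N-BE2 and 15 to 19 in NGP. Most of these falls were far smaller than those of the hormones.

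Ranked by the smaller of its falls in the 2 lines, the neighbour after FUT1 was MIOX, the enzyme that starts inositol breakdown, which begins 343 bases beyond ADM2 on the same strand. It was low, at 2.40 ± 0.414 CPM with DMSO and 0.0378 ± 0.0370 with STM2457 in SK-N-BE2 (-5.92, SE 0.50, adjusted p 6.24e-07, edgeR), and in NGP it went from 153 reads to 14 (-3.37, SE 0.74, adjusted p 0.00683, edgeR). ARHGAP9, a gene 12983 bases from INHBE, fell in NGP from 8.80 ± 2.07 to 0.136 ± 0.0354 CPM (-5.98, SE 0.30, adjusted p 6.03e-06, edgeR) and by 2.41 as log2 in SK-N-BE2 (adjusted p 0.000299, edgeR). ARHGAP9 shares 10.2% of its exon length with GLI1 and MARS1 on the other strand. INHBC, whose fall in NGP is given above, ends 260 bases before INHBE on the same strand.

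PGPEP1, a peptidase gene 4780 bases from GDF15, fell from 9.86 ± 1.45 to 0.786 ± 0.0474 CPM in NGP (-3.64, SE 0.19, adjusted p 7.81e-06, edgeR) and from 44.1 ± 5.12 to 22.9 ± 2.92 in SK-N-BE2 (-0.98, SE 0.12, adjusted p 1.12e-05, edgeR). On the other side of GDF15, LRRC25 was too low to test. STC2 lies farther from other genes, with NKX2-5 at 79401 bases and BOD1 at 277641. BOD1 fell by 0.77 in NGP (adjusted p 0.00147, edgeR) and by 0.27 in SK-N-BE2 (adjusted p 0.0333, edgeR), the latter lost without DMSO replicate 2 or any one STM2457 replicate (adjusted p up to 0.116). NKX2-5 fell by 0.83 in NGP (adjusted p 0.0258, edgeR), a call lost without DMSO replicate 3 or STM2457 replicate 1 or 3 (adjusted p up to 0.0983).

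**Figure D5:**
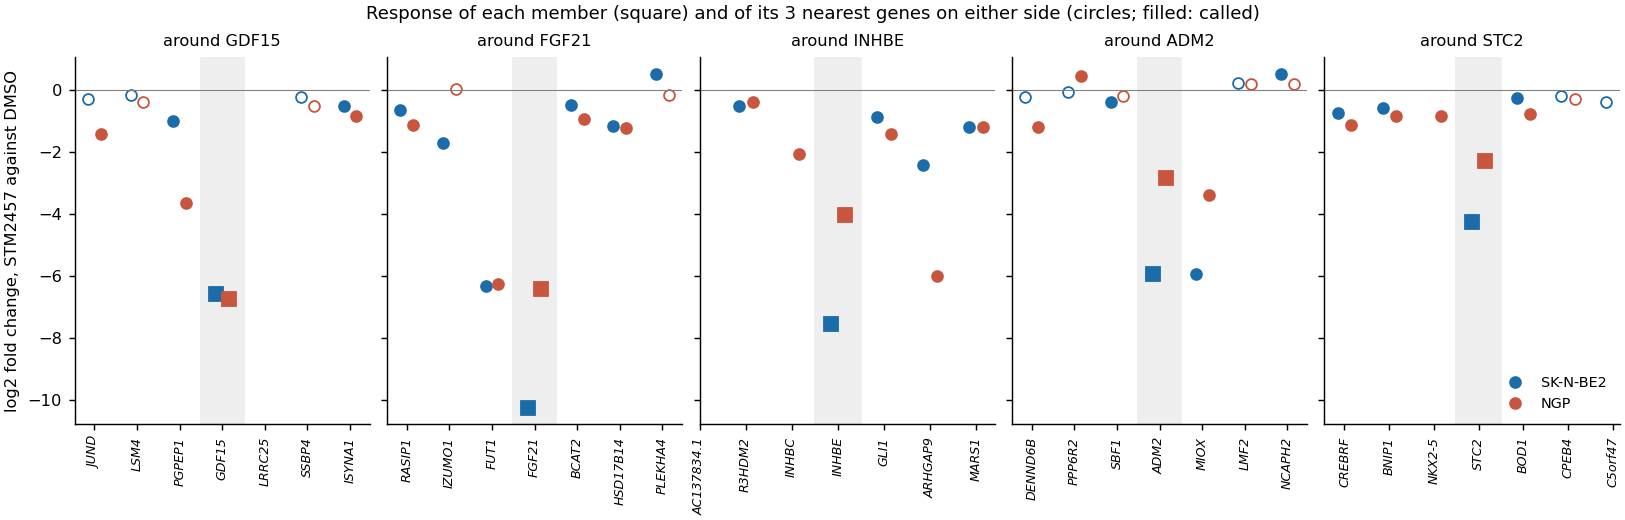
Log2 fold change with STM2457 in both lines for each hormone gene (square, shaded) and its 3 nearest genes on either side in chromosome order (circles, filled where called, absent where not tested). FUT1 beside FGF21 lies at -6.31 and -6.24, near FGF21 in NGP (-6.42) but not in SK-N-BE2 (-10.25). MIOX beside ADM2 lies at -5.92 and -3.37, while genes beside STC2 stay between -1.14 and -0.19.

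Across the 12 libraries the 5 genes followed each other to different degrees. Pearson's r of log2 CPM was highest for FGF21 with STC2 (0.985), ADM2 with STC2 (0.985) and FGF21 with ADM2 (0.978), and lowest for GDF15 with INHBE (0.544), whose DMSO levels are ordered oppositely in the lines. All these values share the split of libraries by line and by treatment and are descriptions only.

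Among the 13315 genes whose mean reached 1 CPM in some group, those most like each hormone gene by the same measure were named. For STC2 they were PSPH (0.994), PSAT1 (0.992) and ASNS (0.992), enzymes of serine and asparagine synthesis. For ADM2 they were PSAT1 (0.990), the mitochondrial serine hydroxymethyltransferase SHMT2 (0.987) and SLC7A11 (0.986). For FGF21 they were the mitochondrial folate enzyme MTHFD2 (0.989), ANKRA2 (0.986) and PSAT1 (0.985), of which 1 was still among the 3 with a prior count of 2. PSAT1 thus appeared for 3 of the 5 genes, but with a prior count of 2 only for ADM2 and STC2. For FGF21 the gene kept with a prior count of 2 was MTHFD2.

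GDF15 and INHBE had other companions. Among the 3 genes most like GDF15 were NFE2L1, a transcription factor of proteasome genes (0.990), and TXNDC11 (0.987). INHBE was most like the adaptor protein SH3KBP1 (0.996), the cell cycle inhibitor CDKN1A (0.992) and the AP-1 repressor JDP2 (0.986). With a prior count of 2, TXNDC11 was no longer among the 3 genes most like GDF15, nor JDP2 among those most like INHBE. The 12 genes named here for likeness each had a negative fitted log2 fold change with STM2457 in both lines. Selection for likeness to genes that are lower with STM2457 favours such values, so nothing is read from them.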

How the data were processed

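The authors deposited unnormalized read counts, whole numbers per gene, for 19923 protein-coding genes of GENCODE 33 on GRCh38. Per the file headers, the authors counted with featureCounts 2.0.5, without a strand option, without counting read pairs and without multi-mapping reads, while the submitters' processing notes list Subread 1.5.3, HISAT2 2.1.0, Trimmomatic 0.36 and FastQC 0.11.5. A fragment can therefore add up to 2 reads, and 72.14% to 75.43% of counts from 1 to 20 were even. Counting intervals (exact binomial on the share of reads, 95%) treat reads as independent and are too narrow.

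Groups and replicates were taken from the sample titles. The labels do not say that replicates came from separate cultures, so p-values measure only the spread between these samples. From the counts, edgeR 4.0.16 (R 4.3.3; filterByExpr with a minimum count of 10, TMM, quasi-likelihood test, Benjamini-Hochberg over all genes tested, threshold 0.05) was fitted per line, for DMSO between lines and for the difference of responses over all 12 libraries. Each SE is the absolute log2 fold change divided by the square root of the F statistic of that test. It can understate the uncertainty where a group held few reads. No spike-in entered the scaling, so changes are relative. The 5 genes, the lists, the tests and the motifs were chosen with earlier results of these data known. Named were all receptors tested, up to 4 called genes of largest change per other list and line, the neighbours, and the 3 genes most like each member (prior count 0.5). Some genes that these rules name are not reported here. Exon overlaps and 19033 shared gene names come from GENCODE 44. Alternatives were DESeq2 1.42.0, DESeq2 and upper-quartile scaling, no filter, halved counts, a prior count of 2 in place of 0.125, a replicate block and leaving out each library. The fits were tested on simulated data.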

Additional observations from a re-analysis of the deposited data

Results flagged for a closer look

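For 24 genes that are named by the rules, belong to the stress response list or are given with values among the neighbours, all tested in both lines, the response to STM2457 differed between the lines by a test of the difference itself (edgeR contrast, SK-N-BE2 minus NGP, log2 scale, Benjamini-Hochberg adjusted over all genes). Of all 14731 genes tested for this difference, 30.9% were called. The 24 come from genes named partly for their values and from a list drawn up with results known. Their number is therefore not read against that share. Line, dose and any batch that follows the line change together in this contrast and cannot be told apart. Among receptors and their partners the difference was -2.03 for RET, 3.97 for FGFR3, 3.23 for CALCRL, 1.20 for KLB and -0.63 for ACVR2B. Among proteases it was 4.29 for PAPPA2, which rests on 3 treated reads in NGP, and 0.92 for PCSK7. Among stress response genes it was -2.76 for CHAC1, -2.20 for SLC7A11, -0.88 for ATF5 and 1.48 for TRIB3. In the same list it was -1.12 for ATF4, -1.86 for PHGDH, -1.58 for ASNS, -1.10 for PSAT1, -0.99 for SHMT2 and -1.59 for DDIT4. The secreted endoplasmic reticulum proteins CRELD2 and MANF gave -1.56 and -0.98. Among p53 targets BBC3 gave 3.90 and CDKN1A -0.69, and among neighbours PGPEP1 gave 2.67, BOD1 0.52 and ARHGAP9, which rests on 20 treated reads in NGP, 3.58. RET and CALCRL were called in opposite directions in the lines, as was MANF, whose NGP call was lost when DMSO replicate 2 or 3 or any one STM2457 replicate was left out.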

How the results depend on the processing

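Of 130 alternative values of the 5 genes' log2 fold changes, 127 moved by less than the spread and 0 changed sign. The exceptions are FGF21 in SK-N-BE2, -8.49 with a prior count of 2 and -12.91 to -9.72 when 1 library was left out, and FGF21 in NGP, -6.13 with a prior count of 2. Of 60 alternative differences between lines in DMSO, 0 changed sign. When 1 library was left out, FGF21 ranged from 0.23 to 0.45 and ADM2 from 0.36 to 0.50, and with a replicate block ADM2 was 0.41. Same-numbered DMSO and STM2457 libraries deviated from their group means with correlations of -0.10 to 0.13 in SK-N-BE2 and, for NGP, of -0.11 to 0.04. Differently numbered libraries gave -0.26 to 0.24 in SK-N-BE2 and -0.14 to 0.15 in NGP. With 3 libraries per group these values cannot decide whether the numbers pair the samples. All 54 alternative counts of called genes stayed within 1.5 times the count reported. Of 78 results of named genes in a line, called or not called, 63 kept that status without any 1 library. The 15 that changed were all calls. Counts of list genes without each library were added after seeing the data. The all-gene shares beside them are those with every library. Genes called in NGP numbered 5671 with every library, 7897 without DMSO replicate 1 and 3816 without STM2457 replicate 1. Few reads limit, among others, FGF21 and MIOX in both treated groups, INHBE, FGF19 and CALCA in treated SK-N-BE2, and INHBB, NUPR1, PAPPA2, FAS and ARHGAP9 in treated NGP, and 3 replicates per group limit all values.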

Other observations

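Other secreted factors linked to stress did not follow the 5 genes as a group. Of 9 such genes, 6 could be tested in SK-N-BE2, with 0 called higher and 4 lower, and 5 in NGP, with 2 higher and 1 lower, beside 26.9% of all genes higher and 27.8% lower in SK-N-BE2, while NGP gave 19.4% and 22.2%. The NGP count of higher genes ran from 0 to 3 when 1 library was left out. Their median log2 fold change was -0.76 in SK-N-BE2 and 0.47 in NGP. CDNF, a neurotrophic factor resident in the endoplasmic reticulum, fell in SK-N-BE2 (-1.43) and in NGP (-1.36; adjusted p 0.00161 and 0.000762, edgeR). Its relative MANF fell in SK-N-BE2 by 0.50 (adjusted p 0.00156, edgeR) and was called higher in NGP (0.49, adjusted p 0.0438, edgeR), a call lost without DMSO replicate 2 or 3 or any one STM2457 replicate (adjusted p up to 0.138). CRELD2, a secreted chaperone-like protein, fell in SK-N-BE2 by 1.11 (adjusted p 7.17e-06, edgeR). ANGPTL4, an inhibitor of lipoprotein lipase, was called higher in NGP (1.34, adjusted p 0.0349, edgeR), a call lost without DMSO replicate 2 or 3 or STM2457 replicate 1 or 3 (adjusted p up to 0.138).

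GDF15 is also a target of p53, and 10 other p53 targets were examined. In SK-N-BE2 4 were called higher and 3 lower, and in NGP 1 higher and 4 lower, with median log2 fold changes of 0.02 and -0.10. The others were not called, and the all-gene shares were again 26.9% higher and 27.8% lower in SK-N-BE2, while NGP gave 19.4% and 22.2%. When 1 library was left out, the NGP counts ran from 0 to 2 higher and from 2 to 4 lower, and those of SK-N-BE2 stayed at 4 higher and ran from 2 to 4 lower. CDKN1A, the cell cycle inhibitor p21, fell from 77.4 ± 5.89 to 18.3 ± 1.48 CPM in SK-N-BE2 (-2.12, adjusted p 2.79e-09, edgeR) and from 175 ± 13.3 to 65.7 ± 3.59 CPM in NGP (-1.41, adjusted p 3.13e-05, edgeR). BBC3, the cell death gene PUMA, fell from 27.8 ± 5.58 to 12.8 ± 2.14 CPM in SK-N-BE2 (adjusted p 2.88e-05, edgeR) and from 19.5 ± 5.86 to 0.587 ± 0.167 CPM in NGP (adjusted p 1.50e-05, edgeR). BAX rose by 0.93 in SK-N-BE2 (adjusted p 3.67e-06, edgeR) and was called higher in NGP (0.80, adjusted p 0.0171, edgeR), a call lost without DMSO replicate 3 or STM2457 replicate 1 or 3 (adjusted p up to 0.0685). FAS, a death receptor of few reads, was called lower in SK-N-BE2 (-1.08, adjusted p 0.0111, edgeR), but not without DMSO replicate 1 (adjusted p 0.0539, edgeR). In NGP FAS was also called lower (-3.02, adjusted p 0.0333, edgeR), a call lost without DMSO replicate 1 or 3 or STM2457 replicate 1 or 3 (adjusted p up to 0.102, edgeR). Genes on the other strand cover 18.7% of the FAS exon length.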
